A study of Mus musculus with 18 samples.

Results

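The comparison set 8 leukemic spleens of Idh2R140Q/NHD13 mice against 3 thymi of wild-type mice across 20672 genes, all measured on single-channel oligonucleotide arrays. Samples were taken by their titles: 9 arrays carried the Idh2R140Q/NHD13 title and 3 the wild-type title, so that 12 of the 18 arrays of the series entered, and 11 of its 17 independent samples. Over all probe sets the root mean square distance between arrays 546 and 550 was 0.212 log2 units, and the next closest of the 152 remaining pairs of arrays stood 0.445 apart. They were averaged and counted as 1 sample, called 546/550 here. The Idh2R140Q/NHD13 mice carried the R140Q allele of Idh2 together with the NHD13 transgene, and the labels call their disease DN1/DN2 T-ALL, an acute leukemia arrested at the earliest T-cell stages. Wild-type mice carried neither and gave normal thymus. A further group in the series, 6 thymi with SCL/LMO1 leukemia labelled as cortical, entered the fit and is cited where the Idh2R140Q/NHD13 spleens are tested against it. The labels give no age or sex, tell the mice apart only by numbers in the titles, and mention no sorting of cells before RNA was isolated. As background, the NHD13 transgene is known to be driven by Vav regulatory elements, which are active across blood cells. Organ and genotype went together, spleen in the leukemic group and thymus in the wild type, so their contributions cannot be told apart in any value below. All arrays measured bulk RNA, in which fewer cells of a type and less RNA per cell cannot be told apart either.

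In the thymus, progenitors pass from the DN1 and DN2 stages, when they still express the stem cell factor receptor Kit, to the cortical stage, when they carry both CD4 and CD8, recombine the T-cell receptor alpha locus with Rag1 and Rag2, and are tested on thymic epithelium. NHD13 stands for the fusion of the nucleoporin NUP98 to the homeobox protein HOXD13, which in mice is known to drive myelodysplasia and leukemias with raised Hox genes. The R140Q enzyme turns alpha-ketoglutarate into 2-hydroxyglutarate, an inhibitor of alpha-ketoglutarate-dependent dioxygenases such as the TET proteins. The mouse spleen, unlike the human one, makes red cells and granulocytes in adult life and widens this production under marrow stress.

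Several samples stood apart and are named here because they touch the results. Values are log2 signals as deposited, on which the median over genes was 6.71. The spleen of mouse 555 had high levels of kidney genes, among them the tubule protein gene Umod at 14.01, against 3.93 to 4.61 in the other spleens and 4.17, 3.74 and 4.31 in the wild-type thymi. Its mean over 10 kidney tubule genes was 10.40, against 5.04 to 5.33 in the other spleens and 4.85 to 5.12 in wild-type thymi. The same spleen held adipocyte genes and both Xist, at 9.53, and the Y-linked Eif2s3y, at 8.74, whereas each other sample had only 1 of the 2 above 6. The 3 wild-type thymi were all high for Xist and differed in fat genes, with Ucp1 of brown fat at 10.63 in mouse 623, 13.41 in mouse 627 and 6.89 in mouse 631. The other spleens were 4 with Y-linked genes (524, 525, 526 and 570) and 3 with Xist (531, 546/550 and 559).

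The limma fit called 3596 genes (17.4%) at an adjusted p under 0.05, of which 1878 (9.08%) were higher and 1718 (8.31%) lower in Idh2R140Q/NHD13 spleens than in wild-type thymi. At least a 2-fold change was met by 766 of the higher and 1163 of the lower genes, and at least 16-fold by 49 and 87. The groups did not overlap for 6.99% of genes on the higher and 5.15% on the lower side. The median difference over all genes was 0.10 log2 units. The counts leaned on single samples. Without wild-type mouse 623 they were 532 higher and 850 lower, without wild-type mouse 627 they were 875 and 1104, and without leukemic mouse 555 they were 2995 and 2293. Without both 555 and 627 they were 1613 and 1601. Below, the 8 spleens are summarised by their lowest, median and highest values, the thymi by mice 623, 627 and 631 in that order, and differences are log2 spleen minus thymus with the standard error of the fit. Every count of list members against wild type stands beside 9.08% of all genes called higher and 8.31% called lower.

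**Figure D1:**
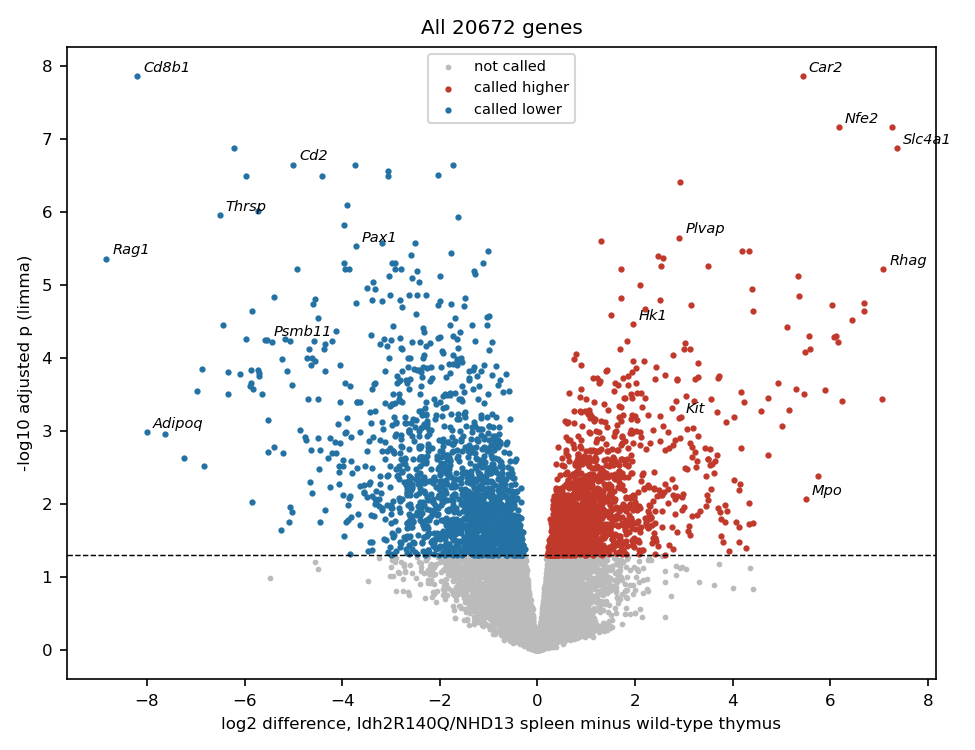
Log2 difference, Idh2R140Q/NHD13 spleen minus wild-type thymus, on the horizontal axis against the negative log10 of limma's adjusted p on the vertical axis, 1 point a gene. Red points are the 1878 genes called higher, blue points the 1718 called lower, and the dashed line marks an adjusted p of 0.05.

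The genes altered in these mice were examined first. Idh2 read 7.90, 10.02 and 11.37 in the spleens and 9.86, 10.93 and 10.26 in the thymi, with overlapping groups and an adjusted p of 0.6. A point mutation need not alter the transcript's level, so this value does not check the genotype. Nup98 was higher in every spleen, at 9.60, 9.82 and 9.96 against 9.37, 9.14 and 9.48 in thymi, a difference of 0.47 ± 0.11 (adjusted p = 0.0093) that lost its call without wild-type mouse 627. Hoxd13, the other partner of the fusion, read 5.25, 5.41 and 6.08 in spleens and 4.97, 5.03 and 5.22 in thymi and missed the threshold (adjusted p = 0.063), though it passed without spleen 555 or 570. Its values lay below the median over genes in all samples, and the probe set's position relative to the fusion was not analysed here. Lmo1, a transgene of the other leukemia, was not called in these spleens, at 5.77, 6.19 and 8.46 against 6.09, 7.27 and 5.79 in wild-type thymi. Tal1, also named SCL and the other gene in the name of that model, was called higher in these spleens. Its values are given below with the red cell genes.

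The largest rises belonged to red cell formation. All 15 measured genes of heme synthesis and iron uptake were higher in the spleens, as were 19 of 21 red cell membrane genes and 9 of 12 erythroid transcription regulators, with none lower, where 9.08% of all genes were called higher. The median differences of these lists were 2.15, 5.43 and 3.24 log2 units. The counts were 11, 15 and 9 without wild-type mouse 623. Klf1, the factor that switches on adult red cell genes, read 8.90, 12.41 and 13.04 in spleens and 4.82, 5.25 and 5.11 in thymi, a 104-fold difference (adjusted p = 1.7e-05). Its partner Tal1 read 7.93, 11.27 and 12.51 in spleens against 5.22, 5.48 and 5.43 in thymi, and Gfi1b, a repressor needed for red cells and platelets, 8.17, 10.57 and 11.49 against 5.89, 6.15 and 5.94. For each of these 3 genes the lowest spleen lay above the highest thymus.

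On the membrane, the anion exchanger gene Slc4a1 had 11.71, 13.18 and 13.82 in the spleens and 6.53, 5.65 and 4.71 in the thymi, the largest rise of all genes named here at 7.36 ± 0.46 log2 units (adjusted p = 1.3e-07). With the mean of all its probe sets the difference was 4.83. Rhag, an ammonia channel of the Rh complex, read 7.98, 11.13 and 12.11 in spleens and 3.50, 3.51 and 3.73 in thymi, 136-fold apart. The cytoskeletal gene Epb42 differed by 6.13 ± 0.72 log2 units (adjusted p = 5e-05). Carbonic anhydrase Car2 had the smallest adjusted p of the list, 1.3e-08, at 13.24, 13.86 and 14.39 against 8.35, 8.92 and 7.94. Mouse 555 was the lowest spleen for Slc4a1, Rhag, Klf1 and Epb42, and mouse 524 the next lowest for Rhag, Klf1 and Epb42. The 2 members that did not pass, named here after their values were seen, were the water channel Aqp1 (1.26) and the glucose transporter Slc2a1 (0.37).

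Within the heme pathway the enzymes from first to last were all higher. Alas2, the erythroid first step, read 9.28, 11.29 and 12.40 in spleens and 9.15, 7.98 and 5.62 in thymi, with no overlap and the lowest level in thymus 631. Alad and Cpox, which act on later steps, differed by 2.61 ± 0.35 and 3.55 ± 0.53 log2 units (adjusted p = 0.00017 and 0.00036 in limma). Tfrc, the transferrin receptor, read 11.93, 13.27 and 13.84 in spleens and 10.93, 10.81 and 11.31 in thymi, 4.45-fold higher (adjusted p = 0.00046). Against the SCL/LMO1 thymi Tfrc did not differ beyond the threshold (0.53, adjusted p = 0.16), while Alad differed by 2.42 (adjusted p = 1.9e-05). Genes of autophagy and of the clearance of organelles from red cells were higher in 3 of 12 cases, beside 9.08% of all genes. The median difference of that list was 0.23. Among them the ubiquitin ligase gene Ube2o read 8.01, 9.84 and 10.45 in spleens and 6.97, 7.02 and 6.92 in thymi (adjusted p = 0.00062).

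Promoter sequences are shown for 4 of the 20 largest rises, each of which holds a short word of the kind that GATA1, a factor of red cell genes, binds. Gata1 itself, named after its value was seen, differed by 4.73 log2 units (adjusted p = 0.00034). RefSeq windows of 300 bases on GRCm38.p6, from 250 bases before to 50 after the start, were matched by symbol for 13 of the 20 genes. The words searched on both strands were AGATAA (found in Epb42 and Kel below), TGATAA (found in Rhag, Klf1 and Kel), AGATAG and the closely related TGATAG (neither found in these 4). At least 1 was present in 9 of the 15 windows of these genes (60%) and in 4 of the 16 windows of the 20 largest falls (25%), against 29.8% of all 32851 windows. Of the 13 genes 9 held a word, and the 4 printed are all among those 9, so they do not represent the 13. Rises and falls were picked by their differences in these same data, and whether GATA1 took part in the rises was not tested. The 4 windows follow, 5′ to 3′ on the gene's strand with the words in capitals: Rhag at chr17:40810899-40811198 (plus strand), Klf1 at chr8:84901732-84902031 (plus), Epb42 at chr2:121036828-121037127 (minus) and Kel, a blood group antigen, at chr6:41704276-41704575 (minus).
Rhag: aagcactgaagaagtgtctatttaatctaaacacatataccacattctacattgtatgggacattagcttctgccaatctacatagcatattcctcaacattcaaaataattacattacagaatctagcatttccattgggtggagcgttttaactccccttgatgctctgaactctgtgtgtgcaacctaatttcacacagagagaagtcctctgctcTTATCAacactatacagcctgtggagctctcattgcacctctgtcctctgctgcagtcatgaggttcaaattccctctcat
Klf1: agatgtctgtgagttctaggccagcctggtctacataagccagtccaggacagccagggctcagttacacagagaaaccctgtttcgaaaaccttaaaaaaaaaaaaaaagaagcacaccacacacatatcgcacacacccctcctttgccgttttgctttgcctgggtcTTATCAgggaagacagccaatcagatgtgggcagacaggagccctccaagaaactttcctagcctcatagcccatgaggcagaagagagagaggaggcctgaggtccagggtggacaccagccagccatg
Epb42: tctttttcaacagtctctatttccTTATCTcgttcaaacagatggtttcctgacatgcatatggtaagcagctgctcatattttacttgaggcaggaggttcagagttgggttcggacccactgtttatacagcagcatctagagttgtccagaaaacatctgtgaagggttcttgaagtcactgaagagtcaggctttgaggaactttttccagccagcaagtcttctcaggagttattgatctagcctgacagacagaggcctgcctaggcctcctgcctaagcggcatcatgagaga
Kel: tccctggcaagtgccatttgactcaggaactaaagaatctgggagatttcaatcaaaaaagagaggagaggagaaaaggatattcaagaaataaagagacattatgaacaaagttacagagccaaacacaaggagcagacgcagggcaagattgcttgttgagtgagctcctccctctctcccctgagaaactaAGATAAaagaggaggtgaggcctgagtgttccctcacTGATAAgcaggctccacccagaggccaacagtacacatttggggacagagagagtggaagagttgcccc
Counted from the start, with -1 as the base before it, the word began at -31 in Rhag, -80 in Klf1 and -226 in Epb42, and Kel held 2, at -56 and -19. A match describes letters only, and no binding was measured.

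Embryonic globins differed widely between spleens. Hbb-y read 8.37, 12.53 and 14.38 in spleens against 4.66, 5.001 and 5.02 in thymi (7.06 ± 1.05, adjusted p = 0.00036). Hbb-bh1 ranged more widely, at 13.84 in mouse 526, 13.57 in 531 and 11.78 in 546/550, with the remaining spleens between 5.19 and 8.39 and thymi at 4.73, 4.63 and 4.48. Its difference of 4.35 ± 1.62 missed the threshold (adjusted p = 0.074). Hba-x, the embryonic alpha-like chain, was highest in the same 3 spleens, at 12.43, 12.66 and 12.29, and passed the threshold (adjusted p = 0.044), a call lost when any of 8 single samples was left out, these 3 among them. Of the adult chains, Hbb-b2 read 8.71, 10.56 and 12.02 against 9.37, 8.42 and 6.11 (adjusted p = 0.029), a call lost without wild-type mouse 627 or 631, and the gene's probe sets can share sequence with other beta globins. Ahsp, which stabilises free alpha chains, read 11.48, 13.58 and 14.03 in the spleens and 6.11, 6.11 and 6.04 in the thymi, 153-fold apart.

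Platelet genes were higher in 13 of 17 cases and lower in none, with a median difference of 1.68. Ppbp, a platelet chemokine, read 10.14, 11.10 and 12.56 in spleens and 6.20, 8.32 and 4.13 in thymi. Itga2b, the alpha chain of the platelet fibrinogen receptor, read 8.73, 9.68 and 10.62 against 7.07, 7.43 and 7.09 and Gp9, of the von Willebrand factor receptor, 7.82, 8.15 and 9.32 against 5.91, 6.25 and 6.09, with no overlap for any of the 3. Their adjusted p-values were 0.00021, 0.00013 and 2.1e-05 in limma. Mouse 524, among the lowest for red cell genes, was the highest spleen for all 3. The count was 8 without wild-type mouse 623.

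Neutrophil granule genes were called higher for 6 of 7 primary and 7 of 12 later granule genes, with none lower. Without wild-type mouse 627 they numbered 3 and 0, and without 623 they numbered 2 and 0. Mpo, the myeloperoxidase of promyelocytes, read 5.73, 10.72 and 13.06 in spleens and 4.76, 5.17 and 5.09 in thymi (difference 5.50 ± 1.27, adjusted p = 0.0084). The lowest spleen was mouse 559, with 8.31 in the next, 526. Ctsg, cathepsin G, read 5.67, 10.62 and 12.89 in spleens and 4.63, 4.86 and 4.66 in thymi (adjusted p = 0.004), again lowest in 559. The secondary granule genes Camp and Ltf averaged 10.49 ± 2.11 and 9.30 ± 1.64 over the 8 spleens, against 6.08 ± 0.77 and 5.45 ± 0.65 over the 3 thymi (mean ± SD). Spleen 559 was the lowest for both and overlapped the thymi for neither. Elane, another primary granule protease, missed the threshold (2.26 ± 0.78, adjusted p = 0.057). Among mast cell and basophil genes, Gata2 and Ccr3 were higher (2.58 and 2.86 log2 units), while the protease Cma1 and the IgE receptor chain Fcer1a were lower (-2.61 and -1.28), Cma1 not without wild-type mouse 623.

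**Figure D2:**
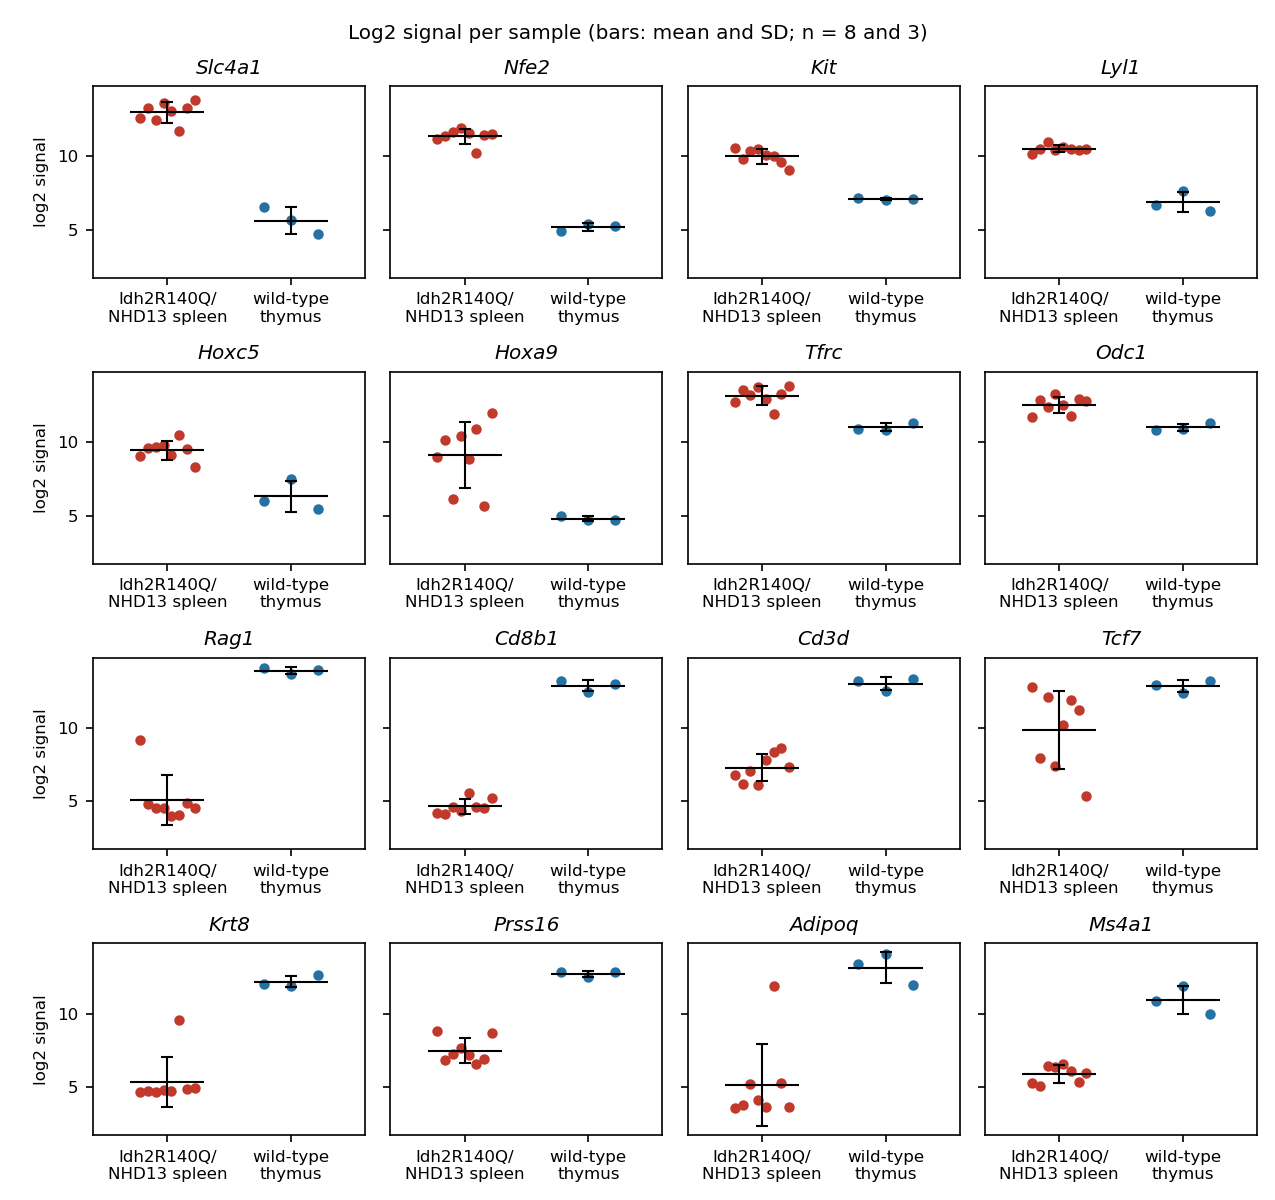
Log2 signal of 16 genes in each of the 8 Idh2R140Q/NHD13 spleens (red, left) and 3 wild-type thymi (blue, right), with black bars for the mean and SD. Slc4a1, Nfe2, Kit and Lyl1 are higher in every spleen than in any thymus, Rag1, Cd8b1, Cd3d and Krt8 lower in every spleen, and Hoxa9 and Tcf7 spread widely among spleens.

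Regulators of early progenitors changed in both directions. Of 17 measured factors 9 were higher and 3 lower. Nfe2, a factor of red cells and platelets, read 10.22, 11.48 and 11.94 in spleens against 4.91, 5.41 and 5.24 in thymi, 72.2-fold higher (adjusted p = 6.7e-08). Lmo2, the bridging protein of the Tal1 complex, read 10.13, 12.06 and 12.69 against 9.02, 9.45 and 8.05 (adjusted p = 0.00033), and Lyl1, a close relative of Tal1, 10.13, 10.50 and 10.98 against 6.70, 7.66 and 6.29 (adjusted p = 0.0026). Of the 9 higher factors 5 (Tal1, Gfi1b, Nfe2, Lmo2 and Zfpm1) are also on the erythroid list, so the 2 counts share them. The 3 lower ones were Meis1, a Hox cofactor (4.94, 5.58 and 6.64 against 8.06, 7.71 and 7.14), the myeloid factor Cebpa (5.52, 6.51 and 8.95 against 9.51, 11.31 and 8.48) and Gfi1 (6.10, 7.22 and 11.20 against 10.76, 9.75 and 10.85). Cebpa was brightest in wild-type mouse 627, which also had the most fat RNA, and its call was lost without that mouse or without 623. Cebpa is expressed by adipocytes too, and the part of fat in its value was not tested. The call of Gfi1, high in spleen 524 at 11.20, was lost when any of 8 single samples was left out.

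Among progenitor receptors 3 of 14 were higher, beside 9.08% of all genes. Kit, the stem cell factor receptor, read 9.09, 10.07 and 10.57 in spleens and 7.20, 7.05 and 7.07 in thymi, 7.51-fold higher (adjusted p = 0.00064), and Il1rl1, the interleukin-33 receptor, 7.76, 11.06 and 11.76 against 7.42, 7.43 and 7.17 (adjusted p = 0.0026). Kit was also 3.57 log2 units above SCL/LMO1 thymi (adjusted p = 5.9e-06). Cd93, the remaining member called higher, differed by 1.81 log2 units (adjusted p = 0.047), or 1.08 with all its probe sets averaged. Its call was lost without leukemic mouse 524, 526, 531, 546/550, 555, 559 or 570, or without wild-type mouse 623 or 631. Cd34 was the member called lower, 6.72, 7.57 and 8.99 against 9.71, 9.70 and 8.12, with overlapping groups. The call of Cd34 was lost without wild-type mouse 623 or 627 or leukemic mouse 559. Cd44, part of the DN1 definition, was higher in all 8 spleens (10.47, 10.92 and 11.43 against 9.99, 9.81 and 9.73) without passing the threshold (adjusted p = 0.1), which it passed with all probe sets averaged (0.028) and in a fit of only these 2 groups (0.0081).

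Homeobox genes of the Hox clusters, whose expression NUP98 fusion proteins are known to sustain, were called in 5 of 7 Hoxc, 2 of 10 Hoxa, 1 of 9 Hoxb and 0 of 9 Hoxd genes, always higher, beside 9.08% of all genes. Hoxc5 read 8.33, 9.55 and 10.46 in spleens and 5.98, 7.51 and 5.48 in thymi (3.13 ± 0.39, adjusted p = 7.3e-05), and Hoxc8, a neighbour in the cluster, 5.96, 7.14 and 10.98 against 3.87, 4.34 and 4.23 (adjusted p = 0.0062). Mouse 555 had the highest Hoxc8. Hoxa9 had the largest SD among spleens of all 35 Hox genes measured, reading 5.62, 9.56 and 11.999 against 4.98, 4.69 and 4.68, with the lowest values in mice 559 (5.62) and 526 (6.14). Its difference of 4.34 ± 1.02 passed (adjusted p = 0.0095) but not in a fit of only these 2 groups. Hoxa7 read 7.51, 8.34 and 9.29 against 6.51, 6.91 and 6.94 (adjusted p = 0.0026).

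Genes of the cortical CD4+CD8+ stage were mostly lower. Of 19 measured, 12 were lower in the spleens and 1, Cd24a, higher, with a median difference of -3.44, where 8.31% of all genes were called lower. Rag1, of the V(D)J recombinase, had the largest fall: 3.99, 4.55 and 9.20 in spleens and 14.12, 13.68 and 13.93 in thymi, 457-fold lower (adjusted p = 4.3e-06). The high spleen was mouse 524, at 9.20, with the other 7 between 3.99 and 4.92. Its partner Rag2 read 3.88, 4.12 and 5.31 against 11.19, 9.92 and 10.55. The CD8 beta chain gene Cd8b1 read 4.12, 4.58 and 5.60 in spleens and 13.18, 12.46 and 12.96 in thymi, 295-fold lower (adjusted p = 1.3e-08). Cd8a, for the alpha chain, was 62.4-fold lower (adjusted p = 3.1e-07), and Cd4 differed by -1.96 ± 0.31 (adjusted p = 0.00062). None of these genes overlapped between the groups. Ptcra, the pre-T-cell receptor alpha chain, read 4.47, 4.85 and 5.36 against 8.20, 8.49 and 9.53 (adjusted p = 5.9e-06). Dntt, which adds bases at receptor joints, spread from 5.09 in mouse 526 to 12.05 in 524 against 13.62, 13.01 and 13.67 in thymi, and its call was lost without wild-type mouse 623.

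Genes of the T-cell receptor complex and its signalling fell in part. Of 20 genes 7 were called lower and none higher, where 8.31% of all genes were called lower. Cd3d read 6.13, 7.22 and 8.64 in spleens and 13.17, 12.53 and 13.34 in thymi (-5.72 ± 0.44, adjusted p = 9.5e-07), while Cd3e, of the same complex, read 7.45, 9.41 and 10.11 against 9.93, 9.81 and 10.45 and did not pass (adjusted p = 0.11). The adhesion receptor Cd2 read 4.55, 5.42 and 6.53 against 10.35, 9.99 and 10.78 (adjusted p = 2.2e-07), and against SCL/LMO1 thymi its difference was -6.46 log2 units (adjusted p = 3.7e-10). The count was 4 without wild-type mouse 623 or 627 and 13 without leukemic mouse 555.

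Transcription factors of the T lineage varied widely among the spleens. Tcf7, which starts the T-cell program, read 5.39, 10.71 and 12.77 in spleens and 12.91, 12.40 and 13.20 in thymi and was not called (adjusted p = 0.095): mice 524, 526 and 555 reached 12.77, 12.11 and 11.89, and mice 525, 531 and 570 stayed at 7.98, 7.42 and 5.39. Gata3 showed the same 3 lowest spleens, at 5.51, 4.77 and 4.19, and so did Il7r, at 7.92, 7.43 and 7.06. Neither passed (adjusted p = 0.38 and 0.95). Il2ra, which marks DN2 cells, was above 9 only in spleens 524 (11.60) and 526 (9.85), the remaining spleens lying between 5.39 and 7.23 and the thymi at 6.64, 7.47 and 8.31. Among markers of the labelled DN1/DN2 stage, Kit and Lyl1 were thus higher in all 8 spleens than in any thymus. Tcf7, Gata3 and Il7r were low in 3 spleens, and Il2ra was high only in 524 and 526. Cd44, Cd3e and Notch1, further markers of the stage, were not called. Whether Kit and Lyl1 came from T-lineage cells was not tested. Of 15 factors 4 were called lower, 2 without wild-type mouse 623 or 631, 6 without leukemic mouse 555 and 8 without 524. Of all genes 8.31% were called lower. Lef1, a partner of Tcf7, read 5.70, 7.18 and 9.52 in spleens against 11.28, 11.02 and 11.82 in thymi (adjusted p = 0.0037), and Id3, an inhibitor of E proteins, 6.69, 7.58 and 9.76 against 10.55, 10.37 and 10.13 (adjusted p = 0.0043). Runx3, of the CD8 lineage, was the member called higher (1.94 ± 0.60, adjusted p = 0.036), a call lost when any of 5 single samples was left out. Of 13 Notch genes 2 were lower: Hey1 (6.28, 6.51 and 6.73 against 8.74, 8.18 and 8.73, adjusted p = 1.9e-05) and Dtx1 (-0.85 ± 0.25, adjusted p = 0.027, lost without wild-type mouse 623, 627 or 631). Notch1 itself was not called (adjusted p = 0.26).

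Genes of thymic epithelium, which the spleen does not have, were lower in 10 of 15 cortical and 8 of 16 medullary cases, with none higher. Psmb11, the thymus-specific proteasome subunit, read 4.08, 4.24 and 4.47 in spleens and 9.61, 9.05 and 10.74 in thymi (46.4-fold lower, adjusted p = 5.6e-05). Prss16, a thymic peptidase, read 6.54, 7.21 and 8.83 against 12.83, 12.47 and 12.81, and the thymic chemokine Ccl25 5.95, 6.85 and 7.91 against 12.83, 12.37 and 12.85. Both lay far apart between the groups, with adjusted p-values of 0.002 and 0.00026. The keratin Krt8 read 4.66 to 4.95 in 7 spleens and 9.58 in mouse 555, against 12.03, 11.90 and 12.63 in thymi (adjusted p = 0.003). Trp63, a regulator of epithelial stem cells, read 3.44, 3.71 and 4.16 in spleens against 9.61, 7.59 and 9.41 in thymi (adjusted p = 0.00015), and Pax1, of the thymic primordium, 5.12, 5.32 and 5.40 against 9.02, 8.62 and 9.35 (adjusted p = 2.9e-06). The master regulator Foxn1 was dim in all samples, 4.45, 4.68 and 4.94 in spleens and 4.41, 4.95 and 5.12 in thymi. With all its probe sets averaged it was called lower (adjusted p = 0.0014 in limma).

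The leukemic thymi were low for epithelial genes too. SCL/LMO1 thymi were called lower than the same wild-type thymi for 9 cortical and 7 medullary genes, where 6.52% of all genes were lower, and the 2 comparisons share their wild-type samples. Set against SCL/LMO1 directly, the spleens were called higher for 2 and lower for 2 cortical genes and lower for 1 medullary gene, where 11.7% of all genes were higher and 12% lower. There Idh2R140Q/NHD13 spleens differed in Krt8 by -1.14 ± 1.07 (adjusted p = 0.48), in Prss16 by 0.51 ± 0.77 (adjusted p = 0.68) and in Psmb11 by -0.62 ± 0.53 log2 units (adjusted p = 0.43), none of the 3 past the threshold. The cortical thymocyte genes differed there: Rag1 by -8.26, Cd8b1 by -6.17 and Cd3d by -6.10 log2 units (adjusted p = 3.1e-07, 3.5e-09 and 1.2e-08), lower in the Idh2R140Q/NHD13 spleens. The SCL/LMO1 levels were 13.34 ± 0.53 for Rag1, 6.51 ± 2.86 for Krt8 and 6.98 ± 2.32 for Prss16 (mean ± SD, n = 6).

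**Figure D3:**
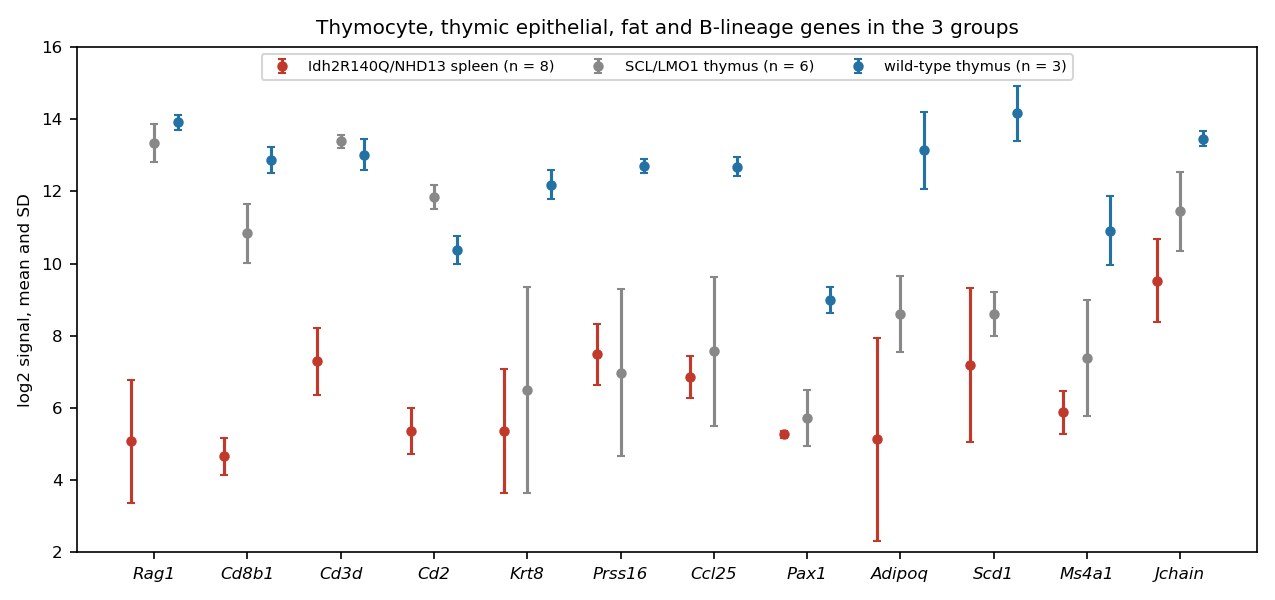
Log2 signal (mean and SD) of 12 genes in Idh2R140Q/NHD13 spleens (red, n = 8), SCL/LMO1 thymi (grey, n = 6) and wild-type thymi (blue, n = 3). Rag1 and Cd3d are close to wild type in the grey points and low in the red, whereas Krt8, Prss16, Ccl25 and Pax1 are low in both.

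Adipocyte genes had the highest share of members called lower among the 52 lists, 12 of 13, with a median difference of -5.06. Adipoq, adiponectin, read 3.59, 3.91 and 11.87 in spleens and 13.39, 14.06 and 11.96 in thymi (256-fold lower, adjusted p = 0.001), with mouse 555 far above the other 7 spleens, whose highest was 5.25. Scd1, a desaturase of lipid synthesis, read 5.03, 6.42 and 10.15 against 14.44, 14.75 and 13.31, and Thrsp, a lipogenic regulator, 6.03, 6.35 and 7.29 against 13.76, 14.18 and 10.88. Ucp1, the uncoupling protein of brown fat, read 3.93, 4.17 and 4.86 in spleens against 10.63, 13.41 and 6.89 in thymi, whose levels lay far apart. The list's mean was 11.99, 13.36 and 9.996 in the thymi, 10 in spleen 555 and 5.67 to 6.27 in the rest. The part of fat in other genes' values was not tested. Without wild-type mouse 627 the count of lower members was again 12, and without leukemic mouse 555 it was 13. SCL/LMO1 thymi were called lower than the same wild-type thymi for 11 of the 13. The mitochondrial genes Pdhb, Pdha1 and Sucla2, the 3 of 18 in the tricarboxylic acid cycle list called lower (-1.09, -1.04 and -1.01), also had their highest value in mouse 627, at 13.35, 13.37 and 13.23, and Pdha1 and Sucla2 lost their calls without it.

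Stromal genes moved in both directions. The 3 higher mesenchymal genes were regulators of spleen stroma: Tcf21 (6.78, 7.92 and 9.57 in spleens against 4.72, 4.74 and 4.24 in thymi, adjusted p = 0.00018), Tlx1, needed for the spleen to form (5.76, 6.10 and 6.43 against 5.20, 5.20 and 5.19, adjusted p = 0.00012), and Nkx2-5 (0.45 ± 0.14, adjusted p = 0.042, with overlapping groups and a call lost when any of 7 single samples was left out). Tlx1 lay below the median over genes of 6.71 in every spleen and wild-type thymus. Of 21 mesenchymal genes 8 were lower, led by the matrix proteoglycan Dcn (5.15, 6.83 and 10.89 against 13.30, 13.31 and 12.17) and Lum (5.23, 5.50 and 7.15 against 10.07, 10.95 and 8.49). Of 15 endothelial genes 6 were higher and 1 lower. Plvap, of fenestrated vessels, read 10.001, 10.48 and 11.06 against 7.58, 8.04 and 7.14 (7.49-fold, adjusted p = 2.2e-06), Stab2, a sinusoidal scavenger receptor, 8.46, 9.23 and 9.82 against 6.80, 6.55 and 6.72 (adjusted p = 5.5e-06), while Lyve1, of lymphatic vessels, read 3.50, 4.11 and 5.84 against 8.43, 8.74 and 6.70 (adjusted p = 0.0068).

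B-lineage genes were lower in the spleens than in the wild-type thymi. Of 15 B-cell genes 9 were called lower and none higher, and of 9 plasma cell genes 5, where 8.31% of all genes were called lower. Set against SCL/LMO1 thymi, 2 of the 15 and 3 of the 9 were called lower and none higher, beside 12% of all genes called lower. Ms4a1, which encodes CD20, read 5.06, 6.02 and 6.57 in spleens and 10.88, 11.89 and 9.97 in thymi, 32.6-fold lower (adjusted p = 0.00023). Ighm, the IgM heavy chain, read 10.05, 11.10 and 13.36 against 14.65, 14.63 and 14.42, and the joining chain Jchain 7.32, 10.01 and 10.67 against 13.71, 13.29 and 13.39 (adjusted p = 0.0039 and 0.001). Pax5 was dim in all samples. Of the MHC class II and dendritic genes 3 of 17 were lower, beside the same 8.31% of all genes, such as H2-DMb2 (6.07, 6.59 and 8.70 against 10.15, 10.14 and 9.98, adjusted p = 0.0013). Leaving out single samples moved this count to 1 without wild-type mouse 627 or 631 and to 9 without leukemic mouse 570. The plasma cell count was 2 without 627 and 3 without 623. The B-cell count was 4 without wild-type mouse 627 and 5 without 623. The stromal chemokine Cxcl13, which draws B cells into follicles, read 4.65, 6.52 and 7.86 against 11.79, 12.49 and 9.07 (adjusted p = 0.0018).

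**Figure D4:**
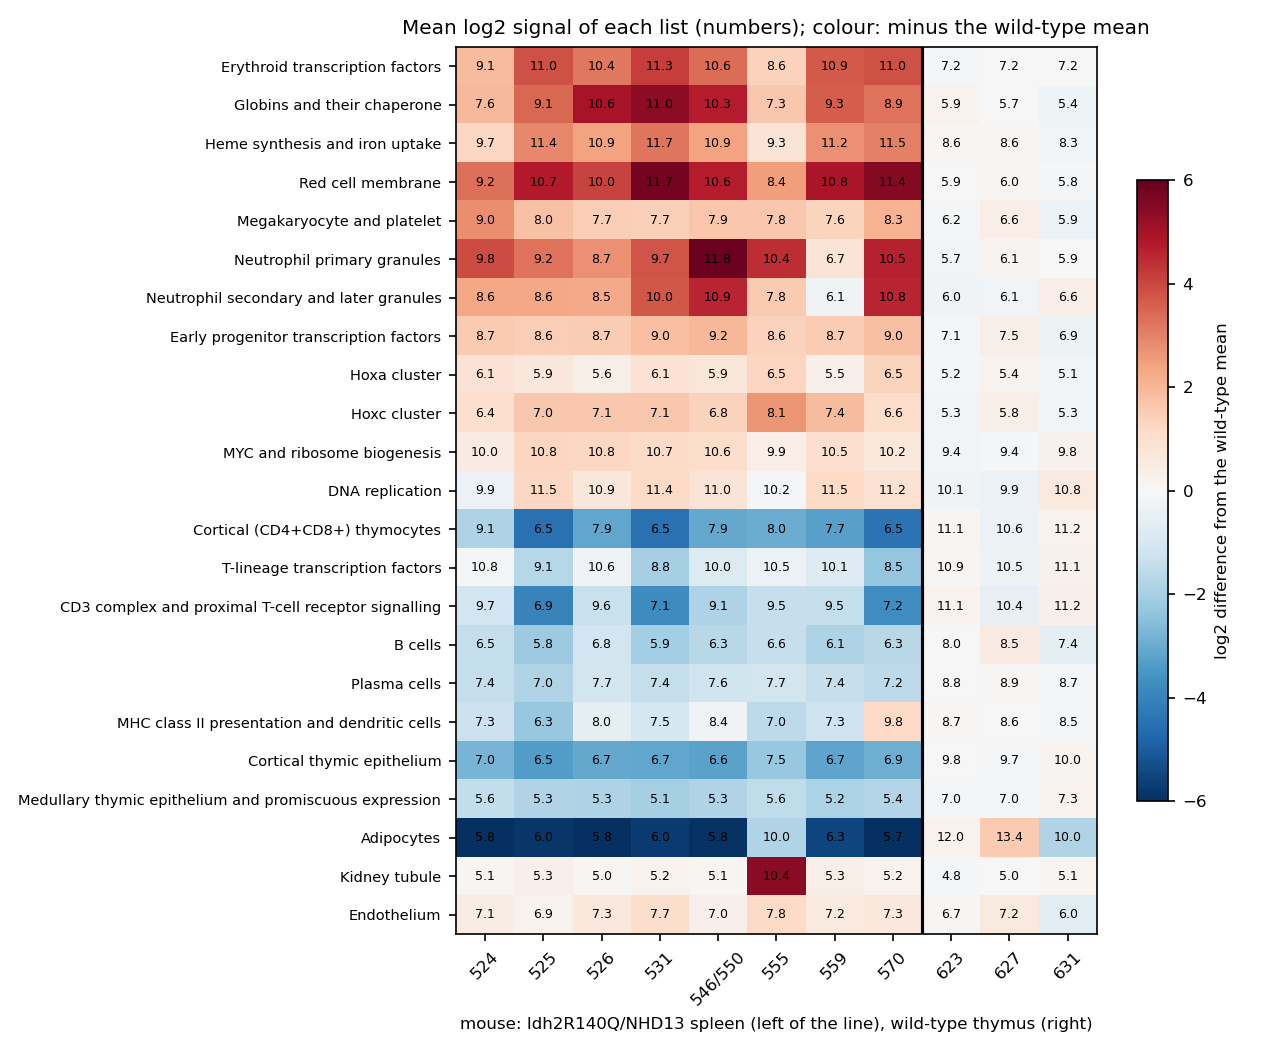
Mean log2 signal of 23 gene lists (rows) in each Idh2R140Q/NHD13 spleen (left of the line) and each wild-type thymus (right), printed in the cells. Colour gives the difference from the wild-type mean, and spleen 555 stands out in the adipocyte and kidney rows with 10 and 10.40.

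Of 16 genes of iron-recycling macrophages 2 were higher and 1 lower. Hmox1, the heme-degrading enzyme, read 9.47, 10.16 and 11.27 in spleens and 6.91, 8.28 and 7.11 in thymi (6.84-fold, adjusted p = 9.1e-05), and Spic, the factor of red pulp macrophages, 7.84, 8.79 and 9.82 against 7.46, 6.77 and 7.31 (adjusted p = 0.016), a call lost without wild-type mouse 627. Timd4, a receptor for dying cells, was the member called lower (-2.12 ± 0.52, adjusted p = 0.012), again lost without 623 or 627. Of all genes 9.08% were higher and 8.31% lower, and leaving out 1 sample gave 1 to 3 higher and 0 to 3 lower members here, with 3 lower without leukemic mouse 570. No monocyte gene of 11 passed.

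MYC and ribosome genes were higher in 12 of 20 cases, median 1.07, and 6 without wild-type mouse 623 or 627. For this and the counts that follow, 9.08% of all genes were called higher and 8.31% lower. Max, the partner of MYC, averaged 8.64 ± 0.27 in spleens and 7.23 ± 0.34 in thymi (mean ± SD), and the polyamine enzyme gene Odc1 read 11.72, 12.66 and 13.28 against 10.83, 10.91 and 11.29. Their adjusted p-values were 0.00015 and 0.0017. DNA replication genes were called higher in 4 of 22, none without wild-type mouse 623 or 627 and 10 without leukemic mouse 555, and no mitosis gene of 20 passed, with a median difference of 0.19. The wild-type thymus is itself a dividing tissue. Cdkn2a, which encodes 2 tumor suppressor proteins from overlapping frames, read 5.51, 8.75 and 11.56 in spleens and 4.48, 4.87 and 3.85 in thymi (4.14 ± 0.91, adjusted p = 0.0063), and Cdkn1b and Cdkn2c, cyclin kinase inhibitors, were lower (-1.11 and -1.29 log2 units), the call of Cdkn1b being lost without wild-type mouse 623 or 631. Of 20 p53 and inhibitor genes 6 were higher and 3 lower, against 1 and 1 without wild-type mouse 623. Hk1, a hexokinase of red cells and other tissues, read 11.16, 11.55 and 12.02 against 9.26, 9.74 and 9.74 (adjusted p = 3.4e-05), and the glucose transporter Slc2a3 10.43, 10.73 and 11.02 against 9.15, 8.90 and 9.56 (adjusted p = 2.5e-05). In all, 4 of 18 glycolysis genes were higher, and 2 without wild-type mouse 623.

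Genes close to the Idh2 reaction were called in both directions. Of 16 genes of isocitrate and 2-hydroxyglutarate metabolism 2 were higher and 2 lower, against a background of 17.4% called, and 0 and 1 without wild-type mouse 623. Bcat1, a transaminase that consumes alpha-ketoglutarate, read 3.67, 3.84 and 6.18 in spleens and 5.69, 6.25 and 6.91 in thymi (adjusted p = 0.0083), with 7 spleens at or below 4.24 and mouse 555 at 6.18. Of 24 alpha-ketoglutarate-dependent dioxygenases 2 were lower, Kdm6b (-0.81 ± 0.23, adjusted p = 0.026) and Kdm3a (-0.63 ± 0.20, adjusted p = 0.043), both histone demethylases. Both lost their calls without wild-type mouse 623 or 631. The call of Kdm6b was also lost without 627 and with all its probe sets averaged. That of Kdm3a was also lost without leukemic mouse 525, 531, 546/550, 559 or 570. The count was 5 without leukemic mouse 524. The list's median was -0.14, and of all genes 8.31% were called lower. Of 21 methyltransferases 3 were called, Dnmt3b and Setdb1 higher and Nsd1 lower, and none without wild-type mouse 623. Dnmt3b, a DNA methyltransferase of early cells, read 7.997, 9.70 and 10.76 against 7.20, 7.53 and 8.71 (adjusted p = 0.021). Transcript levels do not measure 2-hydroxyglutarate or enzyme activity.

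Of 17 homing genes 2 were higher and 4 lower, and of 16 interferon-stimulated genes 1 was higher and 4 lower. Over all genes 9.08% were higher and 8.31% lower. Leaving out single samples gave 1 to 6 lower homing genes and 1 to 7 lower interferon genes, fewest without wild-type mouse 623 (homing genes also without 627) and most without leukemic mouse 570. Ccr9, which draws progenitors to the thymus, spread from 5.15 in mouse 531 to 12.84 in 524, against 13.21, 12.86 and 13.16 in thymi (adjusted p = 0.017, lost without wild-type mouse 623 or 627). Itga4, an integrin chain of progenitor homing, read 9.82, 10.87 and 11.87 against 9.57, 8.59 and 8.90 (adjusted p = 0.0026). Among interferon genes Gbp2 and Ifit3 were lower (-2.68 and -2.04) while Rsad2 was higher, at 10.21, 12.12 and 14.11 against 10.62, 8.93 and 8.46 (2.81 ± 0.71, adjusted p = 0.014). The call of Rsad2 was lost without wild-type mouse 627 or 631, and that of Ifit3 without 623. On a separate list of 20 genes of cytokine receptors, JAK-STAT5 signalling and its feedback, 1 was higher, 2 were lower and 17 were not called. From that list Bcl6, a transcriptional repressor of germinal centre B cells, read 5.64, 7.49 and 8.90 against 10.59, 9.98 and 10.54 (adjusted p = 0.0033), and the cytokine Osm 7.15, 8.24 and 8.65 against 6.92, 6.61 and 6.77 (adjusted p = 0.0019).

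**Figure D5:**
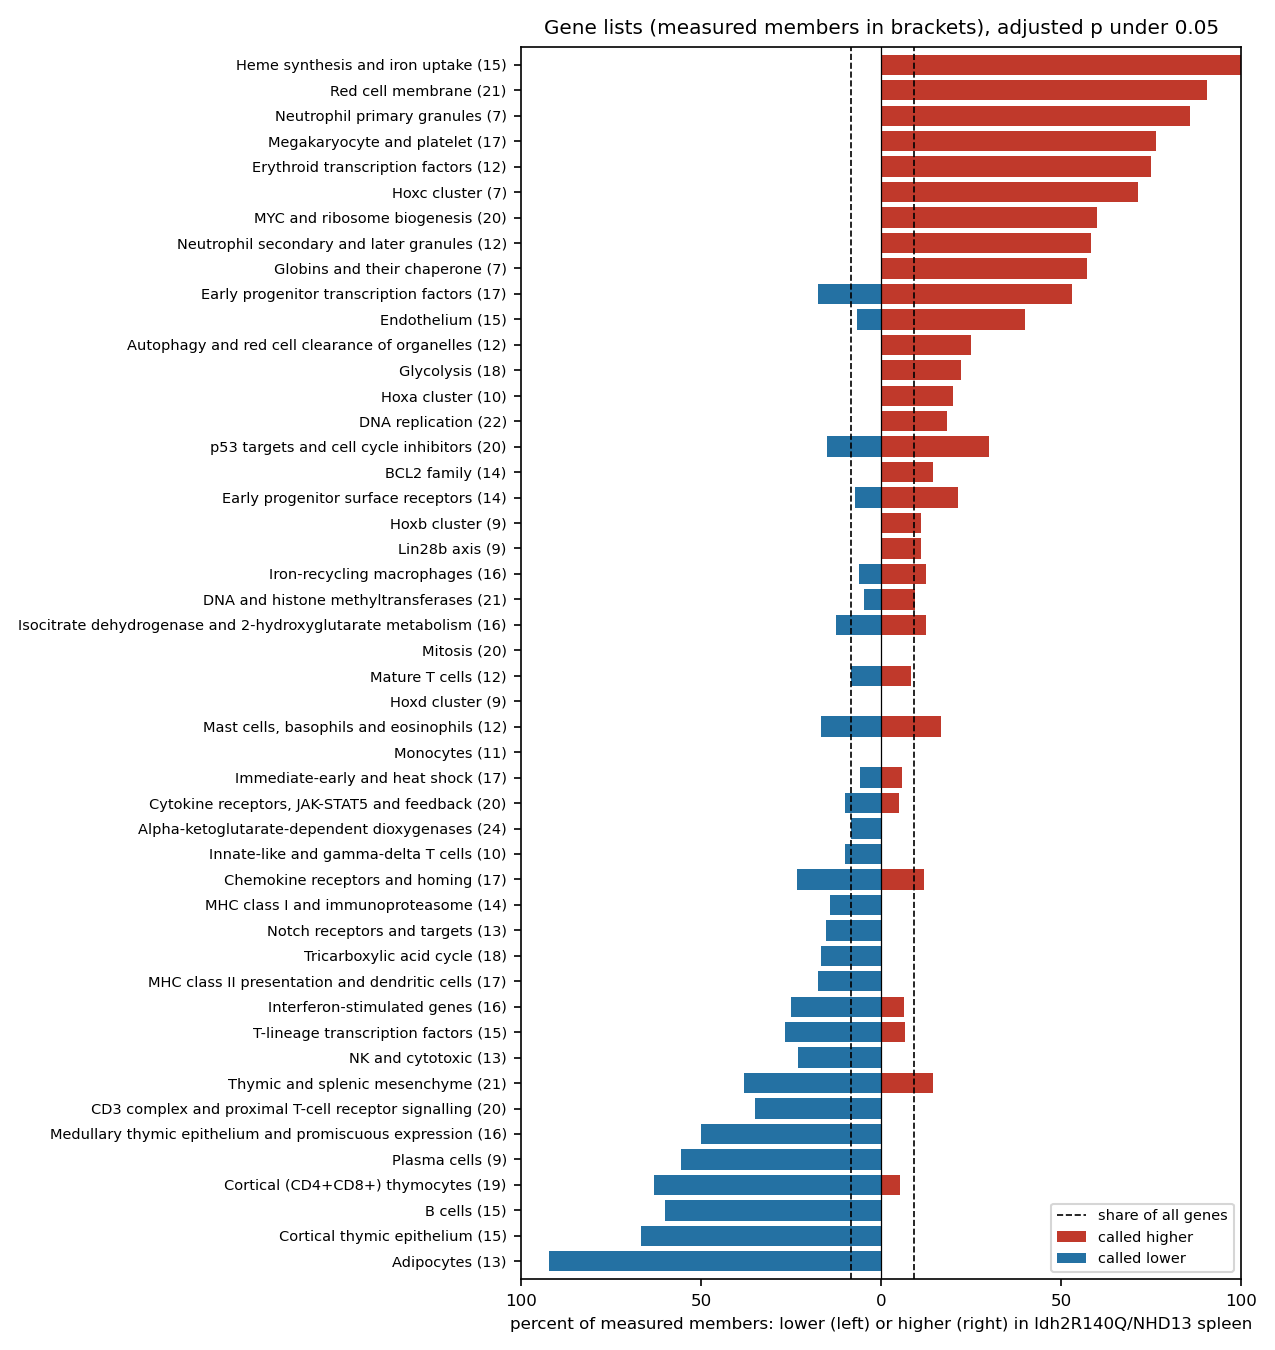
Percent of each list's measured members (number in brackets) called higher (red, right) or lower (blue, left) in Idh2R140Q/NHD13 spleen than in wild-type thymus, with dashed lines at the shares of all genes, 9.08% and 8.31%. Red cell, granule, platelet, Hoxc and MYC lists stand at the top, and adipocyte, epithelial, B-lineage and cortical thymocyte lists at the bottom. The lists of kidney tubule, skeletal muscle, engineered, and Y-linked and Xist genes are not drawn.

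The genes that varied most among the 8 spleens were mostly not called. They included Scin, an actin-severing protein, at 12.65, 12.35 and 12.31 in mice 524, 526 and 546/550 and as low as 4.52 in 570. Cth, of cysteine synthesis, was near 11.25 in 525, 555 and 559, 9.34 in 531, and between 4.22 and 5.60 in the others. Mpp4 ran from 3.53 in 570 to 11.59 in 526. Against thymi their adjusted p-values were 0.47, 0.9 and 0.31.

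For genes with several probe sets the brightest was used. Averaging all of them moved the difference by over 1.5 times for 27 of the 187 called genes chosen by the naming rule. Of those described above, the difference was then -3.52 log2 units for Dcn, -2.58 for Ccl25, -1.54 for Trp63, -2.14 for Pax1, 1.69 for Tcf21 and 1.88 for Kit. It was 2.57 for Hoxa9, 3.98 for Epb42, -0.89 for Meis1, -0.72 for Bcat1, 0.81 for Slc2a3 and 1.03 for Runx3, and -0.70 for Cdkn2c, -0.72 for Cdkn1b, 0.81 for Hbb-b2 and -0.27 for Sucla2. All 16 kept their direction, and Hbb-b2 and Sucla2 lost their calls (adjusted p = 0.063 and 0.098 in limma).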

How the data were processed

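Total RNA from 18 mouse tissue samples was labelled with biotin and hybridised to Affymetrix mouse arrays. The deposited values are log2 signals per probe set, as their range shows. The authors' probe summary and normalization are not given in the sources used here. Array medians lay between 5.89 and 6.01. Another 36 array columns of the series carry no sample in the labels used here and were not used. Probe sets were named through the platform annotation: 38089 of 45101 had 1 symbol, 6948 none and 64 were controls, with 1813 symbols updated through identifiers. The probe set with the highest mean over the 18 arrays stood for each of 20672 genes.

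limma 3.58.1 in R 4.3.3 fitted 1 coefficient per group to 17 samples (8 Idh2R140Q/NHD13, 6 SCL/LMO1 and 3 wild type), so that all groups shared 1 spread per gene. Adjusted p-values are Benjamini-Hochberg over all 20672 genes, with a threshold of 0.05. The fit was tested on simulated data with 100 genes shifted by 1 and 100 by 2 log2 units between Idh2R140Q/NHD13 and wild type; 52% and 85% were recovered, with 7 false calls among 20672 genes. Each Idh2R140Q/NHD13 and wild-type title carries a number of its own, while 2 SCL/LMO1 titles share the number before the slash, and nothing says whether the 2 came from separate animals, so p-values measure only the spread between these samples. Precision is limited by how few arrays there are.

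Members, gene lists (52, of which 717 of 753 genes were measured) and settings were chosen with earlier results of these data known. Genes were named by rule: the 20 largest called rises and falls without overlap and with the higher group's mean above the median over genes, the engineered genes, up to 4 members per list with the smallest adjusted p together with members called against the list's majority, cell type markers, and the 10 most variable genes of the leukemic group. Some genes that meet the rule are not reported here. Promoter windows are RefSeq's on GRCm38.p6. The alternatives were quantile normalization, median centring, a filter on dim genes, all probe sets of a gene averaged, robust moderation with a trend in the variance, weighted arrays, a fit of only the Idh2R140Q/NHD13 and wild-type samples, arrays 546 and 550 as separate samples, an adjusted p under 0.01, a 2-fold minimum and leaving out samples.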

Additional observations from a re-analysis of the deposited data

Results flagged for a closer look

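Among 266 measures examined over the 8 Idh2R140Q/NHD13 spleens, 39 had 1 spleen far from the rest by Dixon's criterion, which chance alone meets in about 1 in 20 groups of normal values. The measures were chosen with these data known, and genes and list means overlap, so the 39 cannot be set against that rate. Of these, 31 belonged to mouse 555, 4 to mouse 559, 2 to mouse 524 and 1 each to mice 525 and 570.

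In mouse 555 the kidney genes were high, with log2 signals of 14.01 for Umod, 11.77 for Slc34a1, 14.16 for Slc27a2, 8.39 for Kap and a list mean of 10.4. Fat and stromal genes were also high there, at 11.87 for Adipoq, 12.61 for Fabp4, 9.8 for Retn, 10.44 for Cdo1, 7.71 for Rbp4, 6.85 for Cidea, 6.85 for Tmem45b, 7.29 for Thrsp, 10.89 for Dcn and 7.15 for Lum, with an adipocyte list mean of 10. The same spleen was high for Krt8 (9.58), Krt18 (7.77), Sdc1 (7.48), Bcat1 (6.18) and Sucla2 (11.69), and for the list means of the Hoxb cluster (6.06), the Hoxd cluster (6.06) and isocitrate and 2-hydroxyglutarate metabolism (10.38). It was the low spleen for Ahsp (11.48), Nfe2 (10.22), Cd24a (13.2), Bbc3 (7.23), Osm (7.15), Icos (5.23) and Krt14 (4.44).

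Mouse 559 was low for the granule genes Ctsg (5.67) and S100a8 (8.68) and high for Ier2 (10.72) and Ucp1 (4.86). Mouse 524 was high for Rag1 (9.2) and low for Hoxc4 (6.88). Mouse 525 was high for Fcer1a (4.43) and mouse 570 for Cbr2 (8.34). The causes of these values were not tested.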

How the results depend on the processing

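None of the 187 called genes named by rule reversed its direction under any of the 22 alternatives. The balance between the 2 counts did shift. Higher genes were 52.2% of those called in the main fit and 60.9% with array weights. They were 42.7% in the fit of these 2 groups alone, 41.3% at an adjusted p under 0.01 and 39.7% with a 2-fold minimum. Without wild-type mouse 627 they were 44.2%, and without 623 they were 38.5%. The counts of genes higher and lower (1878 and 1718) were 4202 and 2700 with array weights, 850 and 1139 in a fit of only the Idh2R140Q/NHD13 and wild-type samples, 579 and 822 at an adjusted p under 0.01, and 766 and 1163 with a 2-fold minimum. Leaving out 1 sample gave 532 to 2995 higher and 850 to 2293 lower, with the lowest counts without wild-type mouse 623, the highest without leukemic mouse 555, and 875 and 1104 without wild-type mouse 627. The remaining settings stayed within 1.5 times: quantile normalization 2045 and 1731, median centring 2460 and 1602, the dim filter 1660 and 1613, all probe sets averaged 2003 and 1813, the variance trend 1921 and 1709, arrays 546 and 550 apart 2253 and 1930, and without both 555 and 627 1613 and 1601. Of the 187 genes, 116 were called in all settings and 71 lost the call in at least 1, among them 58 without wild-type mouse 623, 49 without 627, 28 without 631 and 39 in the fit of both groups alone. Without wild-type mouse 627 the difference moved by over 1.5 times for 4 named genes, and without 631 for 2. Apart from the alternatives that have fewer samples or a stricter threshold by construction, the cause was not tested. No paired analysis was possible because the groups share no replicate numbers. In the simulated data 52% of shifts of 1 log2 unit were recovered.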

Other observations

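Antigen receptor genes, of which only Ighm is on a gene list, were lower in part. Of 10 T-cell receptor genes 4 were called lower and none higher, with differences from -3.24 to 2.15 log2 units, and of 19 immunoglobulin genes 12 were lower and none higher, from -4.35 to 0.38. Of all genes 8.31% were called lower. The gamma chain genes Trgv1 and Trgv4 spread widely and were not called. Trgv1 read 4.93, 12.38 and 13.54 as lowest, median and highest spleen against 8.17, 8.60 and 9.12 in thymi. Trgv4 read 5.92, 11.42 and 13.56 against 8.95, 9.56 and 10.36. Their probe sets can share sequence with related segments.

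The fructose bisphosphatase gene Fbp1, among the 10 most variable in the spleens, had log2 signals of 13.86 in mouse 555, 11.68 in 524 and 9.74 in 546/550, with 7.82 or less in the other 5, against 4.61, 5.52 and 6.02 in thymi (adjusted p = 0.34 in limma). Lin28a, an RNA-binding protein of early embryonic cells, was called higher at 3.47, 3.83 and 4.19 as lowest, median and highest, against 3.33, 3.38 and 3.39 in thymi (adjusted p = 0.027), a call lost without any 1 of the 3 thymi and in a fit of only these 2 groups. All these Lin28a values lay far below the median over genes of 6.71. The muscle gene Ckm read 6.81, 8.41 and 10.92 in spleens against 5.55, 6.11 and 5.69 in thymi (adjusted p = 0.024), a call lost without any 1 of the 3 thymi and a difference of 2.86 that was 1.41 with all probe sets averaged, while 2 other muscle markers, Acta1 (-0.15) and Mylpf (0.04), did not pass.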
